A study of Rattus norvegicus with 12 samples.

Results

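The mRNA levels of 9 antioxidant enzyme genes were examined in fibroblast-like synoviocytes (FLS) treated with taurochenodeoxycholic acid (TCDCA): the glutathione peroxidases Gpx1, Gpx3, Gpx4, Gpx7 and Gpx8, the superoxide dismutases Sod1, Sod2 and Sod3, and catalase (Cat). The members were found by gene name among the 22442 gene records of the expression table, and where more than 1 record carried a name the record with the highest mean level was taken. All 9 were found, and all 9 had a mean of at least 1 FPKM (fragments mapped to a gene, scaled to its exon length and to the reads mapped in the library), as did 11611 records in all. The question was whether a higher level of Gpx3 after TCDCA was shared by the other enzymes.

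FLS are the spindle-shaped lining cells of the joint, here grown from synovial tissue of male Sprague Dawley rats with adjuvant arthritis (AA), a joint inflammation set off by injecting complete Freund's adjuvant into a paw. The 12 poly(A) RNA libraries fell into 4 groups of 3. FLS of the FCA group were kept in medium alone, while those of AT10, AT1 and AT01 received TCDCA, a taurine-conjugated bile acid, at 10, 1 and 0.1 µM for 12 h. Every group therefore came from arthritic animals, cells without arthritis were not analysed here, and all 3 treated groups were compared with the same 3 FCA libraries. The age of the rats was not given in the sources used here. FLS were used at the third passage after tissue from injected rats had been put into culture. Whether the 3 libraries of a group came from separate cultures or animals was not stated, so the p-values below measure the spread between libraries, which may be technical.

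Superoxide leaks from mitochondria and is made by NADPH oxidases. Superoxide dismutases turn it into hydrogen peroxide: Sod1 is the copper and zinc enzyme of the cytosol, Sod2 the manganese enzyme of the mitochondrial matrix, and Sod3 the secreted copper and zinc enzyme that binds to the cell surface and matrix. Catalase breaks hydrogen peroxide down in peroxisomes, and glutathione peroxidases reduce peroxides with thiols. Gpx1 is the cytosolic selenoenzyme, Gpx3 the secreted selenoenzyme found in plasma, and Gpx4 the selenoenzyme that reduces lipid peroxides in membranes, whereas Gpx7 and Gpx8 lie in the endoplasmic reticulum and carry cysteine in place of selenocysteine.

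Upstream sequence is shown for the 2 members with the highest log2 fold changes in the pooled comparison below, Gpx3 and Sod2. The windows cover the 250 bases before the annotated start in RefSeq (build GRCr8), at chr10:39529085-39529334 on the plus strand for Gpx3 and at chr1:50050169-50050418 on the minus strand for Sod2. Capitals mark matches to 3 motifs read on both strands: TGTTCT (a glucocorticoid response element half-site), GGGCGG (GC box) and TGACNNNGC (antioxidant response element).
Gpx3: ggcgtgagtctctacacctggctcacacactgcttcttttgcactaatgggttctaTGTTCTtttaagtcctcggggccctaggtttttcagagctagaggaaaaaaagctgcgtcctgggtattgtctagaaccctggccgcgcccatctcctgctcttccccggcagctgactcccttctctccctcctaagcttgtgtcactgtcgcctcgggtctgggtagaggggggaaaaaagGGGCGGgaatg
Sod2: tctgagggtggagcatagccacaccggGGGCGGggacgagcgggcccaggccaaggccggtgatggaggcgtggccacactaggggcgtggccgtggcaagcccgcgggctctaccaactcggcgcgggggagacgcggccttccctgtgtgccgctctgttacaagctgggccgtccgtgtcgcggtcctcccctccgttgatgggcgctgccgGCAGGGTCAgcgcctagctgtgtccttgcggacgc

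The Gpx3 window held 1 TGTTCT, 194 bases before the start, and 1 GGGCGG, 11 bases before it, and its GC content was 55.2%. The Sod2 window, with a GC content of 71.6%, held 1 GGGCGG 223 bases before the start and, on the opposite strand, 1 match to the antioxidant response element 35 bases before the start. In neither window did these matches overlap each other. RefSeq promoters were matched for 7 of 9 members (all but Gpx8 and Sod3), with 3 starts for Gpx4. Among the 7, only Gpx3 held TGTTCT and only Sod2 held TGACNNNGC, while GGGCGG was found for every matched member but Cat. Of all 33469 rat promoter windows of this length, 17.5% held TGTTCT, 10.1% held TGACNNNGC and 30.5% held GGGCGG. The TATA box letters TATAAA, present in 12.9% of all windows, were found for Sod1 only. These matches describe letters in a window and say nothing of factor binding in these cells.

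FLS expressed the 9 genes at levels that differed widely. Over the 12 libraries, mean levels were 410 FPKM for Gpx8, 252 for Sod2, 251 for Gpx3, 219 for Sod1 and 187 for Gpx4. The other 4 were lower, at 39.1 FPKM for Sod3, 26.1 for Cat, 20.5 for Gpx1 and 15.2 for Gpx7. In the FCA group the order was Gpx8, Sod1, Sod2, Gpx4, Gpx3, Sod3, Cat, Gpx1, Gpx7; the ranges of Sod2 and Gpx4, of Gpx4 and Gpx3, of Sod3 and Cat, and of Cat and Gpx1 overlapped. In the AT01 group Gpx3 stood second, after Gpx8 and before Sod2, with ranges that overlapped both.

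**Figure D1:**
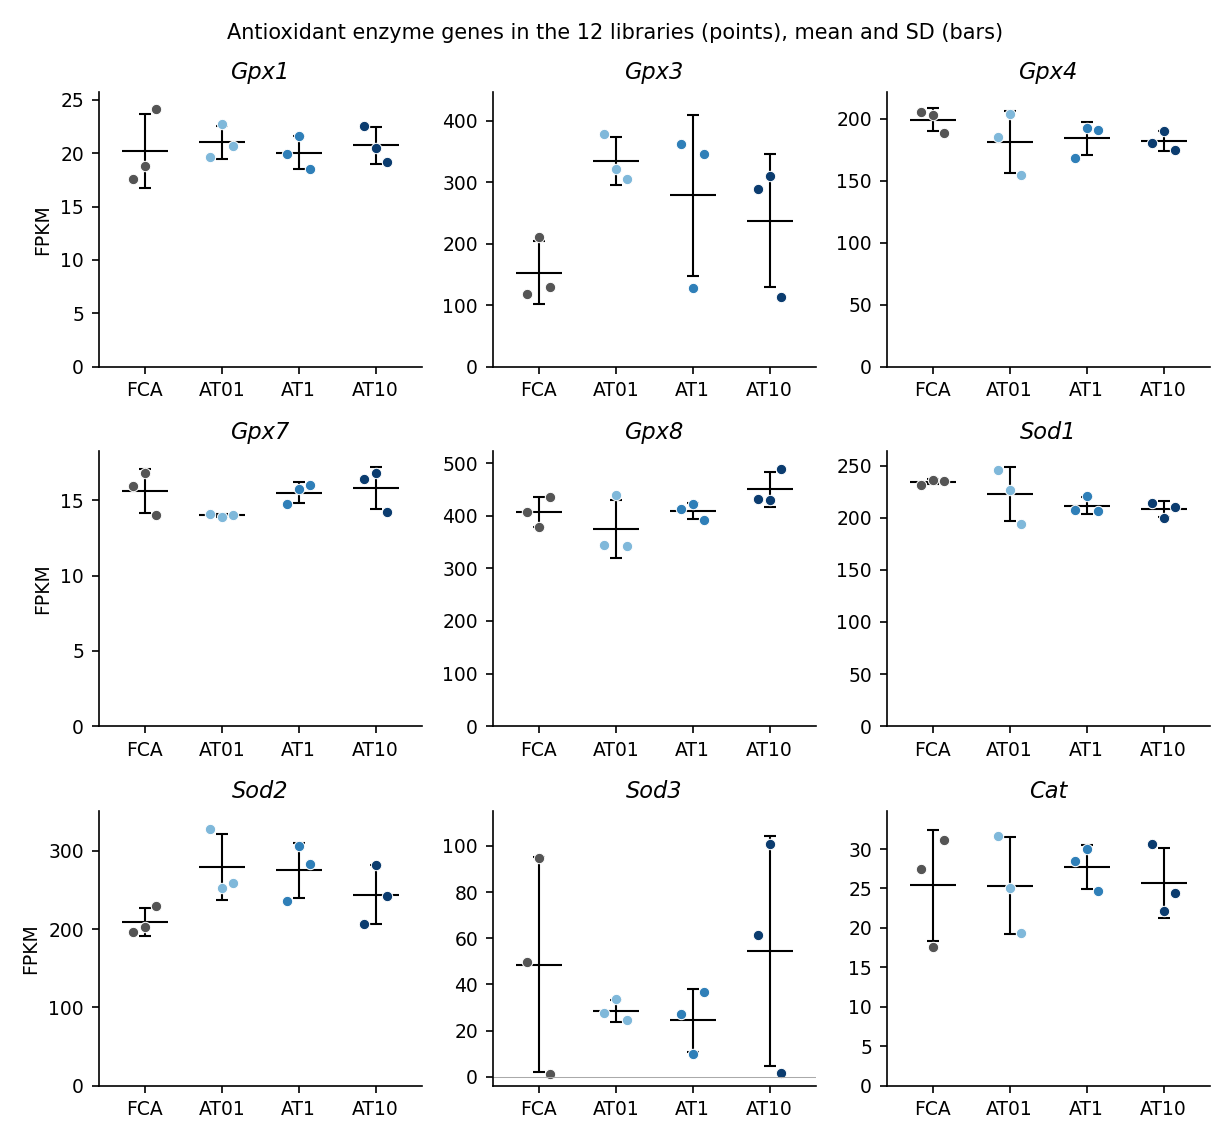
Level of each antioxidant enzyme gene (FPKM, linear axis) in the 3 libraries of each group; points are libraries, long bars the mean and whiskers the SD. The 3 AT01 points of Gpx3 lie at 305 FPKM or above and the 3 FCA points at 211 or below, whereas 1 AT1 point, at 127, lies among the FCA points and 1 AT10 point, at 114, lies below them.

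Among all 9 members, Gpx3 had the highest ratio of group means over FCA at each dose, and the ratio was highest at the lowest dose. In the FCA group Gpx3 was at 118, 211 and 130 FPKM in replicates 1 to 3. In the AT01 group it was at 378, 321 and 305 FPKM, so that every AT01 library lay above every untreated one, as for 5.97% of records. The AT1 group held 363, 127 and 346 FPKM, and the AT10 group 290, 309 and 114 FPKM. At both of these doses 2 libraries were above the FCA range and 1 was not: AT1 replicate 2 lay inside it, and AT10 replicate 3 was the lowest of all 12 libraries.

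Group means of Gpx3 were 153 ± 50.6 FPKM in FCA, 335 ± 38.8 in AT01, 279 ± 131 in AT1 and 238 ± 108 in AT10 (SD, n = 3 each), which are 2.19, 1.82 and 1.55 times the FCA mean. On the log2(FPKM + 1) scale, AT01 exceeded FCA by 1.17 (SE 0.24, 95% interval 0.58 to 1.75). With limma over all 11611 records tested, the unadjusted p was 0.0029 and the Benjamini-Hochberg adjusted p 0.419, and 1.68% of records had a larger absolute log2 fold change. The exact two-sided permutation test gave p = 0.1, the smallest that 3 libraries against 3 allow. The difference from FCA was 0.77 for AT1 (interval -0.40 to 1.93, limma adjusted p = 0.543) and 0.55 for AT10 (interval -0.55 to 1.66, limma adjusted p = 0.636). Both intervals take in no difference as well as a log2 fold change over 1.

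Without AT1 replicate 2 the AT1 log2 fold change of Gpx3 was 1.25, and without AT10 replicate 3 the AT10 value was 1.01, in both cases past the study's criterion, which asks for an absolute log2 fold change above 1 with an unadjusted p below 0.05. Leaving out other libraries gave values down to 0.50 and 0.30. When the 9 TCDCA libraries were pooled, Gpx3 was above every FCA library in 7 and below every one in 1. The pooled log2 fold change was 0.83 (interval 0.01 to 1.65, limma adjusted p = 0.412, exact permutation p = 0.05). Without FCA replicate 2 it was 1.08 and met the criterion, and leaving out other libraries gave values down to 0.67. The 3 doses did not separate from each other for Gpx3: AT10 was lower than AT01 by a log2 difference of -0.62 (limma adjusted p = 0.867), AT1 minus AT01 was -0.40 and AT10 minus AT1 was -0.22, with intervals that all included 0.

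No member passed an adjusted p under 0.05 (limma) in any comparison. Over all records, 0.172% passed that threshold for AT10, 0.0947% for AT1, 0.0947% for AT01 and 0.0258% for the pooled TCDCA libraries against FCA, so few genes of any kind did. Between doses the share was 0.258% for AT10 and AT1, 0.0689% for AT10 and AT01, and 0.129% for AT1 and AT01. The criterion of the study called 1 member, Gpx3 in AT01, where 0.758% of tested records met it. It called no member for AT10 (0.706% of records), AT1 (0.62%) or the pooled libraries (0.491%) against FCA, nor for AT10 and AT1 (0.594%), AT10 and AT01 (0.672%) or AT1 and AT01 (0.568%). At an unadjusted p under 0.05, Sod1 was lower in AT10, as were 4.34% of records. In AT1 Sod2 was higher, as were 5.56%, and Sod1 lower, as were 5.44%. In AT01 and in the pooled libraries Gpx3 and Sod2 were both higher, as were 2.57% and 5.86% of records. With the replicate number as a block in limma, 3 of these unadjusted calls were lost, those of Gpx3 in the pooled libraries (unadjusted p = 0.0635) and of Sod1 in AT10 (0.0519) and AT1 (0.05004). A moderated F test over the 4 groups (limma) gave adjusted p-values of 0.600 (Sod2) to 0.997 (Sod3) for the members, and 0.0431% of records passed.

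As a group, the 9 genes were centred near 0. Their median log2 fold change against FCA was 0.05 at the high dose, 0.01 at the medium dose and 0.01 at the low dose, beside -0.01, 0.02 and 0.00 over all tested records. The sum of the other 4 glutathione peroxidases was 642 ± 23.4 FPKM in FCA, 591 ± 77.9 in AT01, 629 ± 20.9 in AT1 and 668 ± 25.0 in AT10 (SD, n = 3 each). Gpx3 made up 15.5 to 25.5% of the summed glutathione peroxidase FPKM in FCA and 32.1 to 40.2% in AT01, ranges that did not meet. In AT1 and AT10 the share ran from 16.3 to 37.1% and from 14.1 to 32.0%.

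**Figure D2:**
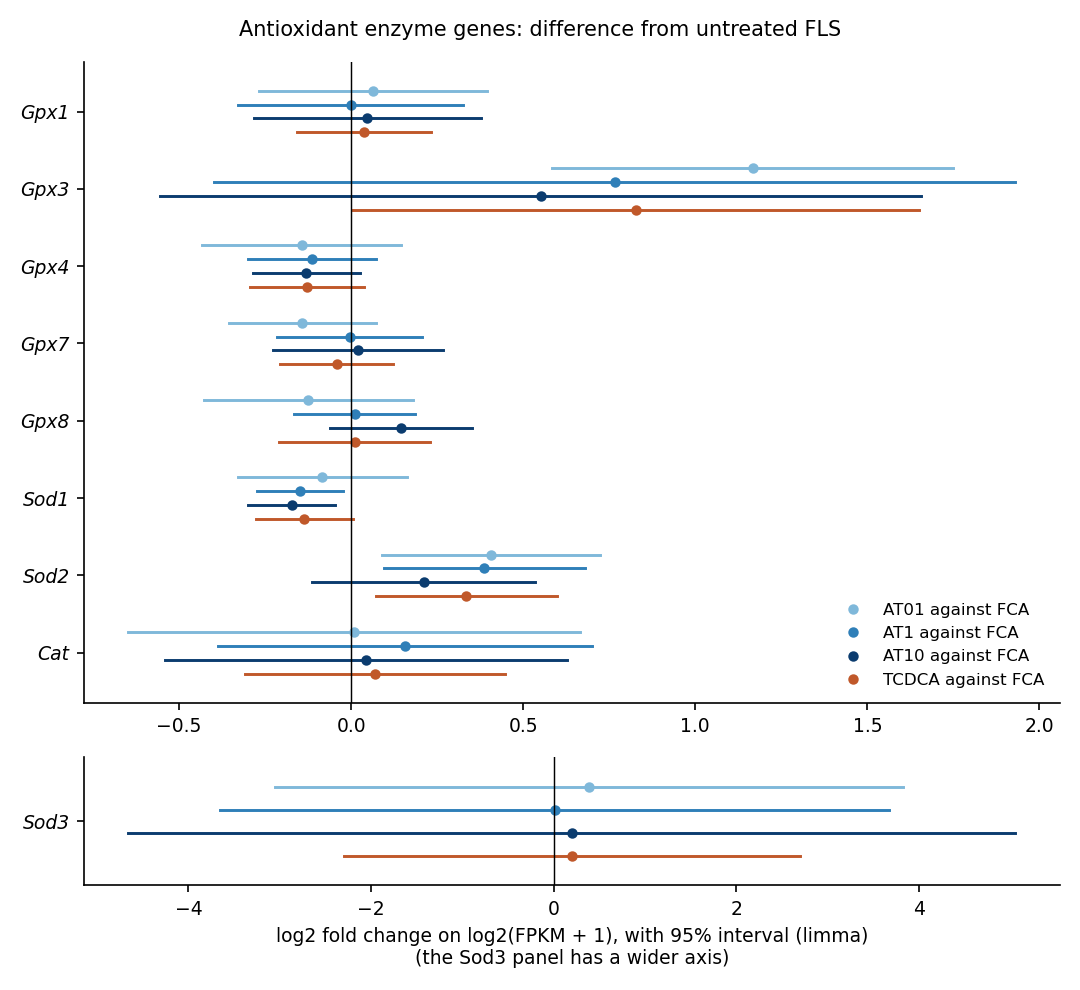
Log2 fold change against FCA on the log2(FPKM + 1) scale for each enzyme gene (horizontal axis) with its 95% interval from limma; colours mark the 3 doses and all 9 TCDCA libraries together, and Sod3 has an axis of its own. Gpx3 in AT01 lies at 1.17 and Sod2 at 0.41 in AT01 and 0.39 in AT1, while the Sod3 intervals reach from -4.66 to 5.06.

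Sod2, the mitochondrial dismutase, was the next highest. It was at 196, 203 and 230 FPKM in FCA, at 327, 252 and 258 in AT01 and at 236, 306 and 283 in AT1. At both doses every library was above every FCA library, which held for 5.97% of records in AT01 and 9.87% in AT1. In AT10 Sod2 was at 207, 282 and 242 FPKM, and replicate 1 lay within the FCA range. The log2 fold changes were 0.41 for AT01 (SE 0.13, limma adjusted p = 0.701), 0.39 for AT1 (SE 0.12, limma adjusted p = 0.424) and 0.21 for AT10 (SE 0.13, limma adjusted p = 0.551). Over the 9 TCDCA libraries, of which 8 exceeded every FCA library, it was 0.33 (interval 0.07 to 0.60, limma adjusted p = 0.347), and the exact permutation test gave p = 0.0227 before any correction. The difference therefore went one way in nearly all libraries, and it did not pass correction over all records.

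Sod1, the cytosolic dismutase, went the other way. The FCA libraries lay close together, at 232, 237 and 236 FPKM. The AT10 libraries were at 214, 200 and 211 FPKM and the AT1 libraries at 207, 221 and 207, all below every FCA library, as were 9.18% of records in AT10 and 10% in AT1. In AT01 the values of 246, 227 and 194 FPKM spread to both sides of the FCA range. The log2 differences were small, at -0.17 in AT10 (SE 0.05, limma adjusted p = 0.303), -0.15 in AT1 (SE 0.05, limma adjusted p = 0.428) and -0.08 in AT01 (SE 0.10, limma adjusted p = 0.850). In the pooled comparison Sod1 was lower by a log2 difference of -0.14, with 8 of 9 TCDCA libraries below and 1 above every FCA library (limma adjusted p = 0.432, exact permutation p = 0.05).

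Sod3, the secreted dismutase, varied so much between libraries of the same group that no difference could be read. In FCA it was at 49.9, 94.6 and 1.30 FPKM, and in AT10 at 61.3, 101 and 1.68. The AT1 libraries were at 27.1, 9.78 and 36.8 FPKM and the AT01 libraries at 27.5, 33.6 and 24.4. FCA replicate 3 and AT10 replicate 3 thus stood far below the other 10 libraries, the lowest of which was at 9.78 FPKM.

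The pooled within-group SD of Sod3 was 2.08 on the log2 scale, which 0.456% of tested records exceeded, against 0.63 for Gpx3 and a median of 0.17 over all tested records. The 95% intervals of its log2 fold changes ran from -4.66 to 5.06 in AT10, from -3.66 to 3.68 in AT1 and from -3.05 to 3.82 in AT01. The sign of the Sod3 difference depended on the scale: in AT1 and AT01 the group means in FPKM were 0.51 and 0.59 times that of FCA, whereas the log2 fold changes were 0.01 and 0.39. Without FCA replicate 3 the AT01 log2 fold change was -1.25, which met the criterion of the study.

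Gpx4, the lipid peroxide reductase, had lower means at each dose. It was at 206, 203 and 189 FPKM in FCA and at 180, 190 and 175 in AT10. The AT1 libraries held 169, 192 and 191 FPKM and the AT01 libraries 185, 204 and 154. Of the 9 TCDCA libraries, 5 were below and none above the FCA range. The log2 differences were -0.13, -0.11 and -0.14 in AT10, AT1 and AT01, with limma adjusted p-values of 0.468, 0.570 and 0.822.

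Gpx8, the most abundant of the 9, was at 408, 378 and 435 FPKM in FCA and at 431, 430 and 489 in AT10. In AT1 it was at 412, 423 and 392 FPKM and in AT01 at 344, 438 and 343. The AT10 libraries all lay above the AT1 libraries (log2 difference 0.13, limma adjusted p = 0.766; 5.7% of records separated this way), and the FCA range overlapped all 3 doses. Over FCA, the log2 fold change of Gpx8 was 0.14 at the high dose (interval -0.06 to 0.35), 0.01 at the medium dose and -0.12 at the low dose.

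Gpx7, the other endoplasmic reticulum member, was at 16.0, 16.9 and 14.0 FPKM in FCA and at 14.1, 13.9 and 14.0 in AT01. The AT10 libraries were at 16.4, 16.8 and 14.2 FPKM and the AT1 libraries at 14.7, 15.8 and 16.1. The AT01 values were all below those of AT10 and AT1, with log2 differences of 0.16 (AT10 minus AT01, limma adjusted p = 0.867; 4.64% of records separated this way) and 0.14 (AT1 minus AT01, limma adjusted p = 1; 4.86%). They met the FCA range through FCA replicate 3.

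Gpx1 and Cat showed no separation of any treated group from FCA. Gpx1, the cytosolic peroxidase, was at 17.6, 18.8 and 24.1 FPKM in FCA, and all 9 TCDCA libraries fell between 18.5 and 22.7. Its log2 fold changes were 0.05 at the high, 0.00 at the medium and 0.06 at the low dose, and the interval over the 9 TCDCA libraries was -0.16 to 0.23. Cat was at 27.5, 17.6 and 31.1 FPKM in FCA, and the TCDCA libraries ran from 19.3 to 31.7. Its log2 fold changes were 0.04, 0.16 and 0.01, with an interval of -0.31 to 0.45 over the 9 TCDCA libraries.

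From library to library, the other enzymes differed in how they varied with Gpx3. Over the 12 libraries, which share groups and so are not independent points, Pearson's r of log2 values with Gpx3 was 0.59 for Sod3, 0.34 for Sod2 and -0.50 for Gpx8, and among all 36 pairs of members it ran from -0.50 to 0.64 with a median of -0.06. For Sod3 the r within groups was 0.71 and Spearman's rho 0.24. Without FCA replicate 3 and AT10 replicate 3, where Sod3 was lowest, r was 0.16, and without the 2 libraries farthest from the median of Gpx3 it was 0.64. For Sod2 the r within groups was -0.19. Ranked by r with Gpx3 among 11610 records, Sod3 stood at place 119, Sod2 at 1093 and Gpx8 at 11083.

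None of the other enzymes examined was among the 5 records whose pattern was most like that of Gpx3. Closest was Bsg (basigin, a membrane glycoprotein that induces matrix metalloproteinases and escorts lactate transporters to the cell surface), with r = 0.95 and Spearman's rho of 0.85 over 12 libraries. Bsg was at 239, 252 and 218 FPKM in FCA, at 364, 358 and 305 in AT01, at 317, 239 and 333 in AT1 and at 326, 326 and 225 in AT10. The 5 lowest libraries were the same for both genes: the 3 FCA libraries, AT1 replicate 2 and AT10 replicate 3. Among these, FCA replicate 2 stood above the other 4 for Gpx3, at 211 FPKM. The next were Il1r1 (r = 0.84), the signalling receptor of interleukin 1, Pign (r = 0.81), an enzyme of glycosylphosphatidylinositol anchor synthesis, AABR07035074.1 (r = 0.80) and a record without a gene name, MSTRG.3795 (r = 0.80). The last 2 had means of 1.09 and 1.24 FPKM.

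**Figure D3:**
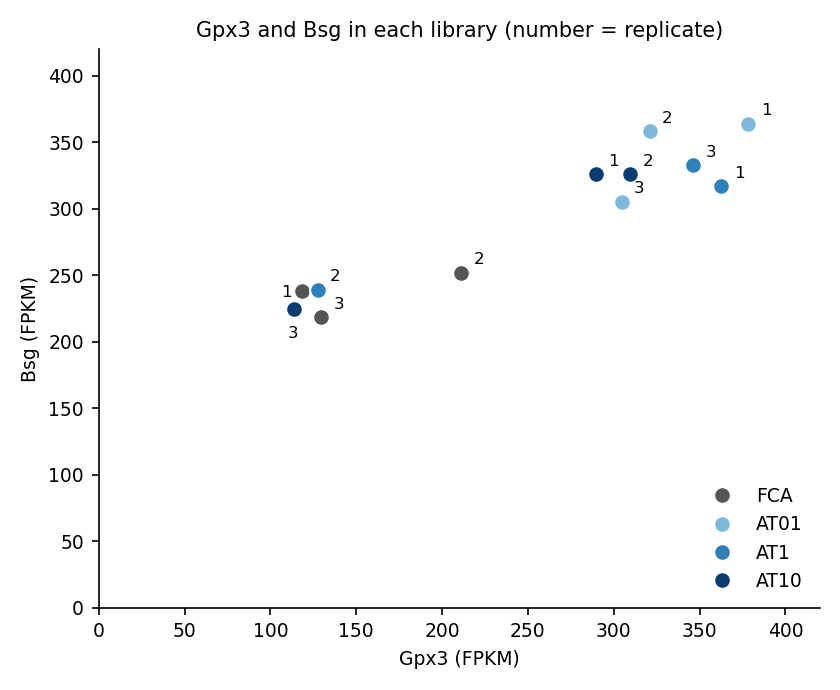
Level of Bsg (vertical axis, FPKM) against that of Gpx3 (horizontal axis, FPKM) in each of the 12 libraries, coloured by group and numbered by replicate. The FCA libraries, AT1 replicate 2 and AT10 replicate 3 lie at 252 FPKM of Bsg or below, and the other 7 libraries at 305 or above.

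The genes that feed and surround these enzymes were examined in 7 lists of 46 genes, of which 45 were listed and 36 were tested. None passed an adjusted p under 0.05 (limma) or met the criterion of the study in any comparison with FCA. At an unadjusted p under 0.05, 2 were higher and 1 lower in AT10 (7.54% and 4.34% of all records), 1 higher and 3 lower in AT1 (5.56% and 5.44%), and 2 higher and none lower in AT01 (2.57% and 4.03%). Over the pooled libraries 1 was higher and 1 lower (5.86% and 6.15%). Their median log2 fold changes were -0.01, 0.06 and 0.04.

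Of the other glutathione peroxidases, Gpx5 had a mean of 0.81 FPKM and Gpx2 of 0.06, so neither was tested. Prdx5, a peroxiredoxin of mitochondria and peroxisomes, was the most abundant peroxiredoxin at 1552 FPKM, well above every member, with log2 fold changes of -0.03 in AT10, -0.11 in AT1 and -0.08 in AT01. Of the 6 peroxiredoxins, 2 had a log2 fold change above 0 in AT10, 2 in AT1 and 1 in AT01. Txn1, the cytosolic thioredoxin, led its list at 150 FPKM with log2 fold changes of 0.47, -0.02 and 0.08. Of the 6 tested genes of glutathione supply, 4 had a log2 fold change above 0 in AT10, 5 in AT1 and 4 in AT01, with medians of 0.10, 0.12 and 0.12, and none passed the adjusted threshold.

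Glutathione peroxidases with selenocysteine need the selenoprotein machinery, and none of its 7 genes passed the adjusted threshold. Trnau1ap, which binds the selenocysteine tRNA, was the most abundant at 11.1 FPKM. Its log2 fold change was -0.0003 in AT10 (limma adjusted p = 0.999) and -0.15 in AT1 (limma adjusted p = 0.428). Its AT01 libraries, at 12.84, 11.16 and 9.26 FPKM, lay on both sides of the FCA range of 11.35 to 11.77. Atox1, the copper chaperone, led the copper handling list at 78.6 FPKM with log2 fold changes of -0.10, -0.15 and -0.03.

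Among the sources of superoxide and hydrogen peroxide, Cyba, the membrane subunit shared by several NADPH oxidases, was the most abundant at 94.4 FPKM. It was at 109, 120 and 103.17 FPKM in FCA, at 86.4, 90.3 and 85.3 in AT10, at 87.8, 83.2 and 78.4 in AT1, and at 103.16, 99.8 and 86.7 in AT01. All 9 TCDCA libraries were below every FCA library, in 1 case by 0.01 FPKM, a separation seen for 1.9% of records. The pooled log2 difference was -0.31 (limma adjusted p = 0.274), and the exact permutation p of 0.00455 is the smallest that 9 libraries against 3 can give. Cybb, the catalytic partner of Cyba in phagocytes, had a mean of 0.03 FPKM, and Nox4, its partner in many fibroblasts, of 0.37. Nox1, another partner, had a mean of 2.19 FPKM, and its log2 fold changes were above 0, at 0.24 in AT10, 0.11 in AT1 and 0.34 in AT01 (limma adjusted p = 0.487, 0.748 and 0.720). All 3 AT01 libraries of Nox1, at 2.41, 2.47 and 2.82 FPKM, were above FCA, at 2.12, 1.55 and 1.81, as were 5.97% of records. Over the 9 TCDCA libraries the Nox1 value was 0.23 (95% interval -0.00 to 0.46, limma adjusted p = 0.420).

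**Figure D4:**
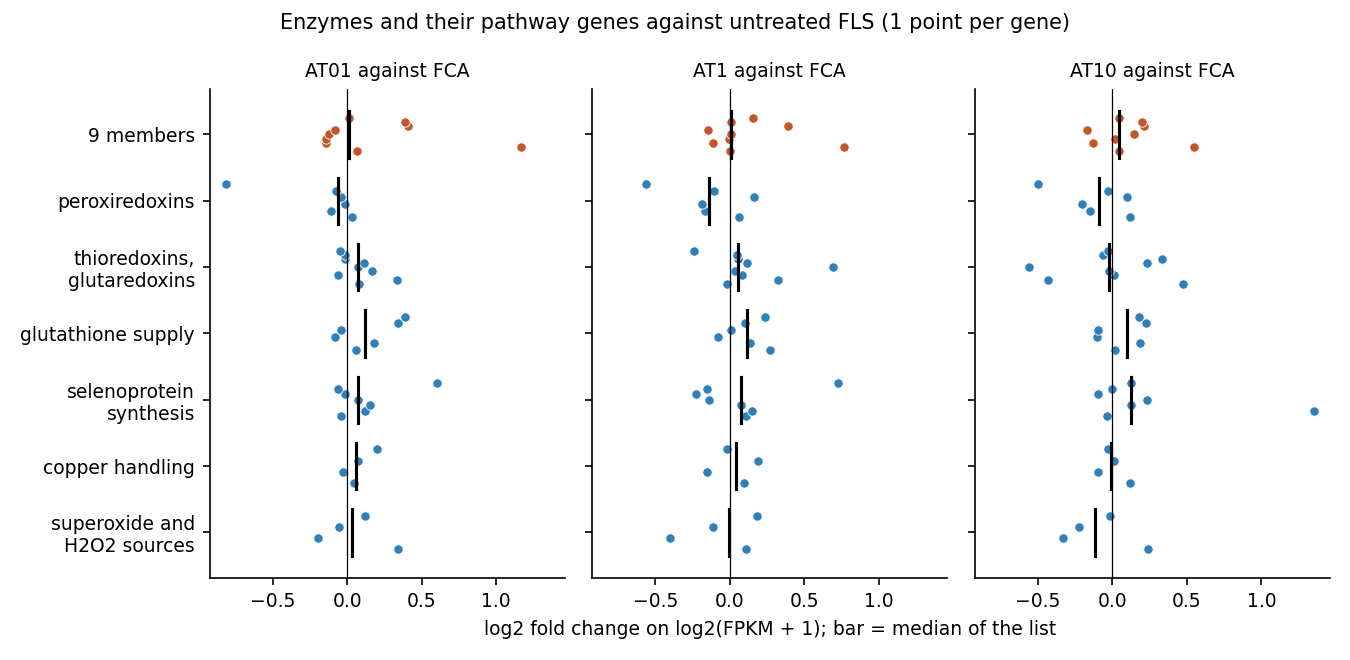
Log2 fold change against FCA (horizontal axis, log2(FPKM + 1) scale) of the 9 enzyme genes and of the tested genes of 6 pathway lists at each dose; each point is a gene and each bar a list median. Gpx3 is the rightmost enzyme point at each dose (1.17, 0.77 and 0.55), and the list medians lie between -0.14 and 0.12.

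The cells carried the markers of fibroblasts: the 7 listed of 9 fibroblast markers were all at 1 FPKM or more on average. Among them, Thy1 was at 152 to 158 FPKM in FCA and 112 to 146 in the TCDCA libraries. These ranges of Thy1 did not overlap, as for 1.9% of records. For the other listed fibroblast markers (Pdpn, Prg4, Cdh11, Vim, Col1a1 and Pdgfrb), the TCDCA and FCA ranges overlapped. The 4 listed endothelial markers summed to at most 0.21 FPKM in a library, and 6 listed macrophage markers to 5.71 to 21.9. Most of the macrophage sum was Cd14, at a mean of 13.8 FPKM, and Cd68, at 2.13. Csf1r had a mean of 0.16 FPKM, Adgre1 of 0.007, Aif1 of 0.003 and Mrc1 of 0.0025. The 4 smooth muscle markers summed to 307 to 410 FPKM in FCA and 159 to 303 in the TCDCA libraries, ranges that did not overlap, and their r with Gpx3 was -0.01 over 12 libraries. That separation lay in Acta2, at 263 to 370 FPKM in FCA and 125 to 256 in the TCDCA libraries, a separation seen for 1.9% of records. For the other 3 (Myh11, Cnn1 and Des), the TCDCA and FCA ranges overlapped. The 5 adipocyte markers summed to 81.6 to 96.3 FPKM in FCA, 93.8 to 101 in AT01, 88.7 to 105 in AT1 and 78.4 to 89.7 in AT10. The r of this sum with Gpx3 was 0.26. Lpl and Fabp4, at means of 55.0 and 33.1 FPKM, made up most of it. Adipoq, Plin1 and Cidec had means of 1.87, 1.62 and 0.19 FPKM. The part of the smooth muscle or adipocyte markers in the values of Gpx3 was not tested. In bulk RNA, fewer cells expressing a gene and less RNA per cell cannot be told apart. No erythroid marker was listed under the 4 names searched, and the 4 chondrocyte markers summed to 4.66 to 9.75 FPKM. Of these, Acan was at 4.89 to 5.79 FPKM in FCA and 2.74 to 4.58 in the TCDCA libraries, again without overlap (1.9% of records). For Sox9, Comp and Col2a1 the TCDCA and FCA ranges overlapped, and Col2a1 had a mean of 0.0025 FPKM.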

How the data were processed

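RNA was measured as FPKM per gene record in 12 libraries. The authors trimmed reads with cutadapt, aligned them with HISAT2 2.0.4, assembled transcripts with StringTie 1.2.4 and deposited FPKM values made with StringTie and Ballgown 2.6.0; the genome build was not given in the sources used here. The read number behind a value is unknown, because FPKM holds no counts. FPKM summed to 284210 to 309696 per library.

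From these values, log2(FPKM + 1) was tested for the 11611 records averaging 1 FPKM or more, with limma 3.58.1 (R 4.3.3; empirical Bayes with trend), 2 groups at a time, with Benjamini-Hochberg adjustment over all records. Exact two-sided permutation tests went through every grouping of the libraries, and Spearman's rho was computed with SciPy 1.17.1. The fold change on this scale understates changes of low genes. The fit was checked on simulated data in which 200 records were raised by a log2 change of 2 in AT01. Of these, 86% were called, with 7 unchanged records. Changes as small as those of Gpx3 and Sod2 were not simulated.

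Named genes were all members, the most abundant gene of each pathway list, pathway genes passing either threshold against FCA, and the 5 records most like Gpx3. Cybb, Nox4 and Nox1 were added after their values were seen. One gene named by this rule is not reported here. Members and lists were chosen with earlier results of these data known. Second records of Gpx8, Sod1 and Sod3 had means of 3.01, 0.48 and 0.05 FPKM. Alternatives were other pseudocounts, filters, scalings and fits, a replicate block, and leaving out each library.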

Additional observations from a re-analysis of the deposited data

How the results depend on the processing

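No member passed an adjusted p under 0.05 under any alternative. The log2 fold change of Gpx3 in AT01 against FCA stayed between 1.01 and 1.42 without each library in turn, and met the criterion of the study throughout. Its limma adjusted p then ran from 0.0771, without FCA replicate 2, to 0.718. Without each library in turn the number of members meeting that criterion ran from 0 to 1 for AT10 and AT1 against FCA (Gpx3, without AT10 replicate 3 and without AT1 replicate 2), from 1 to 2 for AT01 (Sod3 added, without FCA replicate 3), from 0 to 1 for the pooled libraries (Gpx3, without FCA replicate 2), and from 0 to 1 for AT10 against AT1 and AT10 against AT01 (Sod3, without AT10 replicate 3). The number of pathway genes called ran from 0 to 1 for AT01 against FCA (Prdx6, without FCA replicate 1) and from 0 to 1 for AT10 against AT1 (Txn2, without AT10 replicate 2).

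A linear model F test built as in Ballgown, with a covariate for each library's overall level, moved the count meeting the criterion to 1 for AT10 (Sod3), AT1 (Sod3) and the pooled libraries (Gpx3) against FCA and to 1 for AT10 against AT1 (Sod3). Under it the AT1 log2 fold change was 1.38 for Gpx3, against 0.77, and 4.12 for Sod3, against 0.01. It turned the sign of Cat at AT10 (-0.014), AT1 (-0.26), AT01 (-0.12) and pooled (-0.049), of Gpx8 at AT1 (-0.12) and pooled (-0.067), of Gpx7 at AT1 (0.15), of Gpx1 at AT01 (-0.013) and of Gpx3 between AT1 and AT01 (0.083). Median-of-ratios scaling turned Gpx8 (-0.010) and Sod3 (-0.012) at AT1. The causes were not tested.

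Leaving out single libraries turned differences near 0, and those of Sod3. Gpx1 ran from -0.040 to 0.18 at AT10, -0.088 to 0.13 at AT1, -0.022 to 0.19 at AT01 and -0.050 to 0.17 pooled. Gpx7 ran from -0.051 to 0.090 at AT10, -0.075 to 0.050 at AT1 and -0.11 to 0.012 pooled. Gpx8 ran from -0.043 to 0.060 at AT1 and -0.043 to 0.060 pooled, and Sod1 from -0.16 to 0.0087 at AT01. Sod3 ran from -1.44 to 1.83 at AT10, -1.63 to 1.06 at AT1, -1.25 to 1.44 at AT01 and -1.44 to 1.25 pooled. Cat ran from -0.19 to 0.20 at AT10, -0.080 to 0.32 at AT1, -0.23 to 0.18 at AT01 and -0.17 to 0.23 pooled. Gpx3 ran from -0.70 to 0.25 between AT10 and AT1 and from -0.66 to 0.088 between AT1 and AT01.

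The study describes the replicate numbers as sets of repeats, without saying what a set shared, and the data did not show pairing. Pairing was looked for in the deviations of log2 values from the group means, not in the levels themselves. The 18 correlations of these deviations between same-numbered libraries of 2 groups ran from -0.11 to 0.09. On the same deviations, 3 of 12 libraries correlated best with their own number. With the replicate number as a block, 0 members were called at the adjusted threshold and Gpx3 in AT01 against FCA had a log2 fold change of 1.17 (limma adjusted p = 0.805). The unadjusted p of Gpx3 in the pooled libraries went from 0.0487 to 0.0635, of Sod1 in AT10 from 0.0162 to 0.0519 and of Sod1 in AT1 from 0.0269 to 0.05004; the block ended no other unadjusted call of a member against FCA.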

Other observations

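Several redox genes stood at separate levels in different libraries; these genes were picked after their values were seen. Prdx6, a peroxiredoxin that also acts as a phospholipase, was at 35.2 to 41.3 FPKM in 8 libraries and at 79.5 to 93.0 in the other 4 (FCA replicates 2 and 3, AT10 replicate 2 and AT1 replicate 3). Txn2, the mitochondrial thioredoxin, was at 40.4 to 43.8 FPKM in 3 libraries (FCA replicate 2 and AT10 replicates 1 and 3) and at 79.8 to 101 in 9. Glrx, the cytosolic glutaredoxin, was at 14.9 to 23.9 FPKM in 5 libraries (the 3 AT10 libraries, FCA replicate 1 and AT01 replicate 3) and at 41.0 to 61.6 in 7. Its log2 difference between AT10 and AT1 was -1.26 (limma adjusted p = 0.162), which met the criterion of the study.

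Sephs2, which makes the selenium donor for selenocysteine, was listed at 0 in replicate 1 of FCA, AT1 and AT01 and at 7.48 FPKM or above in the other 9 libraries. Selenop, the secreted selenium carrier, was at 10.3 and 11.9 FPKM in AT01 replicate 1 and AT1 replicate 2 and at 2.97 to 4.57 in the other 10. Gpx3 was high in 1 of these 2 libraries (378 FPKM) and low in the other (127 FPKM). Glrx3, a cytosolic glutaredoxin that carries iron-sulphur clusters, was at 70.7 to 77.2 FPKM in AT10 and 56.7 to 62.3 in FCA (log2 difference 0.33, limma adjusted p = 0.172). Glrx2, of the same list, was at 10.7 to 11.4 FPKM in AT10 and 8.95 to 9.54 in FCA (log2 difference 0.23, limma adjusted p = 0.254). Both genes were higher in AT10 with an unadjusted p under 0.05 (limma), as were 7.54% of all tested records. Of the 9 tested genes of that list, 4 had a log2 fold change above 0 in AT10.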
